A study of Mus musculus with 2 samples.

Results

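Neutrophils carry their antimicrobial proteins in granules that are filled in a fixed order as the cell matures. Primary (azurophil) granules, made in promyelocytes, hold myeloperoxidase and the serine proteases. Secondary (specific) granules, made in myelocytes, hold lactoferrin, cathelicidin and collagenase, and tertiary granules follow. The phagocyte oxidase, assembled from membrane and cytosolic subunits, makes superoxide at the membrane of granules and phagosomes. The transcription factors PU.1 and C/EBP family members are known to drive this programme, with C/EBP epsilon needed for secondary granule genes. In bone marrow, where granulopoiesis takes place, these transcripts are abundant.

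The set examined here was a list of 38 granule and granulopoiesis genes, matched by symbol to the expression table. Of these, 36 had a row of their own among 35798 rows. Spi1, which encodes PU.1, stood under its older symbol Sfpi1, and Fpr2 shared a row with Fpr3, so both were kept out of all counts and their rows are given apart. Of the 36 genes, 32 reached 1 FPKM (fragments scaled by transcript length and sequencing depth) in at least 1 library. The other 4, Ly6g, Trem1, Olfm4 and Stfa3, did not.

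RNA was sequenced from sorted bone marrow cells of adult C57BL/6 mice, negative for CD45, CD31 and Ter119 and positive for green fluorescent protein from the Nes-gfp transgene. The JAK2 V617F library came from Nes-gfp;Mx1-cre;JAK2-V617F mice, in which Mx1-cre, driven by an interferon-inducible promoter active in blood cells and other tissues, is switched on by pIpC. The control library came from littermates labelled Nes-gfp alone. Both groups were given pIpC, and cells were taken 6 weeks later. Cells of 3 mice of the same genotype were combined before sequencing, giving a single library for each genotype (n = 1). No value below therefore has a replicate error, no test was possible, and what is compared is a pair of pools. Per the labels, the Cre transgene and JAK2 V617F differ together between the groups and cannot be told apart.

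The whole table set the frame for these genes. From the steps between low values, depth was estimated at about 6140000 fragments in the JAK2 V617F library and 5250000 in the control library. Jak2 was at 29.9 FPKM in the JAK2 V617F library and 24.5 FPKM in the control library, but the transgene has no row, so this does not check the genotype label. Nes was at 3.00 and 4.84 FPKM in the JAK2 V617F and control libraries. The sort removed cells with surface CD45, and its transcript Ptprc was at 8.79 FPKM in the JAK2 V617F library and 5.38 FPKM in the control library. Transcript levels in such pools cannot separate a change in the number of cells of a type from a change in RNA per cell.

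Promoters of 6 members are shown because they belong to the secondary granule genes that differed most between the libraries (Ltf, Ngp, Chi3l3 and Mmp8) and a pair of primary granule genes for comparison. Sequences are from RefSeq (GRCm38.p6), cover up to 250 bases before the RefSeq start site, and are written 5′ to 3′ on the gene's strand. They end where GENCODE vM21 starts the gene, where that start lies farther upstream. Capitals mark matches on either strand to TTNCNNAA (a C/EBP motif), GAGGAAG (a PU.1 motif) and TGTGGT (a RUNX motif); in these stretches no match overlaps one of another motif.

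Elane promoter, chr10:79886062-79886246, plus strand: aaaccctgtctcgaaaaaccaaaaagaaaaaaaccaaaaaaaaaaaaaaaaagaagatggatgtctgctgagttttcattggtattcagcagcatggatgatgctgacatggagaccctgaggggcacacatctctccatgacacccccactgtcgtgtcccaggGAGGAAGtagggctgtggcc

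Ctsg promoter, chr14:56102575-56102824, minus strand: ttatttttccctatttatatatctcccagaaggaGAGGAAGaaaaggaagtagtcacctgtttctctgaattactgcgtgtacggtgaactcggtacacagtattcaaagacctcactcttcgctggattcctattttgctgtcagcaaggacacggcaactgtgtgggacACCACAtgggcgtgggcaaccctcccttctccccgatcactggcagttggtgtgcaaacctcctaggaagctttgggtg

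Ltf promoter, chr9:111019042-111019270, plus strand: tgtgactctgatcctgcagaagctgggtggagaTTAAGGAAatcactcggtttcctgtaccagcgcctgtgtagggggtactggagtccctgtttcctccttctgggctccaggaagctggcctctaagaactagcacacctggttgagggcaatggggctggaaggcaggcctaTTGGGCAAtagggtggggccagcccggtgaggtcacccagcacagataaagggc

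Ngp promoter, chr9:110419558-110419746, plus strand: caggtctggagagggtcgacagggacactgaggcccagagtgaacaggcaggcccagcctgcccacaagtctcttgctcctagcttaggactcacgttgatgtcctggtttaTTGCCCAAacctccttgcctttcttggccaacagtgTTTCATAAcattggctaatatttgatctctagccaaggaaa

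Chi3l3 promoter, chr3:106167565-106167814, minus strand: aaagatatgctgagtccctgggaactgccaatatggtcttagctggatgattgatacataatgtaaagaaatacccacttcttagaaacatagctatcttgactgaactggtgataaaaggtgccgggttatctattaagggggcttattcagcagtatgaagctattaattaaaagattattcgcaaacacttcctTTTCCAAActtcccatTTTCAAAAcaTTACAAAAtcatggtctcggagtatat

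Mmp8 promoter, chr9:7558179-7558428, plus strand: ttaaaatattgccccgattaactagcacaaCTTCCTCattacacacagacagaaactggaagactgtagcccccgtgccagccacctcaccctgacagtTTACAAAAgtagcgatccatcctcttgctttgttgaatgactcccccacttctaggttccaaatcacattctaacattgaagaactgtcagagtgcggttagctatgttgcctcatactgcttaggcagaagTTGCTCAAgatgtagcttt

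Elane and Ctsg each held a PU.1 match and no C/EBP match. Ltf, Ngp, Chi3l3 and Mmp8 each held at least 2 C/EBP matches in the full window. Ngp had 3, of which the one nearest to the RefSeq start lies in the stretch not printed. Promoters were found for 32 of the 38 list genes. These are not the same 32 genes that reached 1 FPKM. Fpr2, Ly6g, Trem1, Olfm4 and Stfa3 are among them, while Cebpe and Hp are not. All 4 primary granule promoters held GAGGAAG and 0 of 4 held TTNCNNAA. Of 8 secondary granule promoters, 7 held TTNCNNAA and 3 held GAGGAAG. Camp was the exception with no match to any of the motifs. The 3 oxidase promoters found held neither TTNCNNAA nor GAGGAAG, and all 6 surface protein promoters found, that of Fpr2 included, held TTNCNNAA. Over the 32 members with a promoter, 59.4% held TTNCNNAA, against 36.8% of 32851 promoter windows of the same length in the reference. GAGGAAG was in 34.4% of members against 10.6% of all windows, and TGTGGT in 15.6% against 14.0%. These shares describe letters in a window and were not tested. C/EBP matches were found in genes of both directions: Mmp8 and Retnlg, higher in the JAK2 V617F library, and Ltf, Ngp and Chi3l3, lower in it. Padi4 and Pglyrp1, higher in that library, and Camp, lower in it, held none. GAGGAAG was in Mmp8 and Pglyrp1 but not in Retnlg, Padi4, Ltf, Ngp, Chi3l3 or Camp. Whether either motif goes with the direction of the level was not tested.

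**Figure D1:**
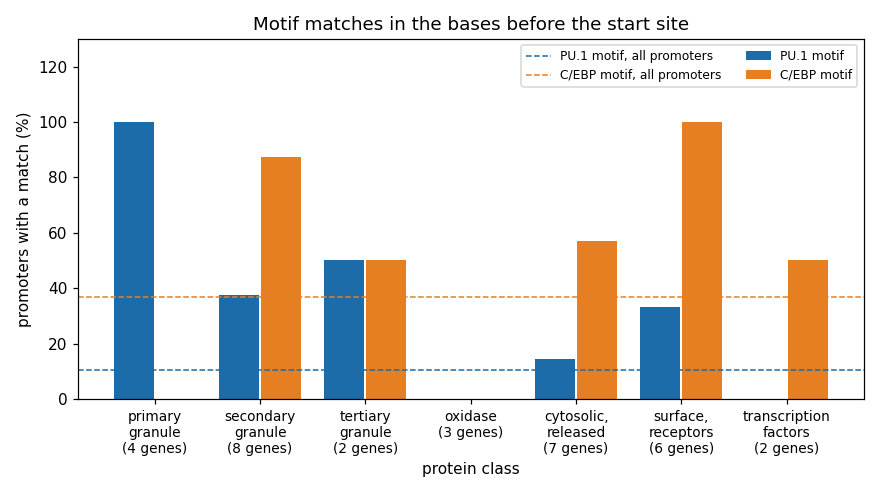
Share of promoters (vertical axis, percent) with a PU.1 motif (GAGGAAG, blue) or a C/EBP motif (TTNCNNAA, orange) in the 250 bases before the RefSeq start site, by protein class, with the number of genes under each class; dashed lines give the shares over all promoters. The primary class has PU.1 matches in 4 of 4 genes and no C/EBP match, and the secondary class has C/EBP matches in 7 of 8.

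Summed over its 36 rows, the neutrophil programme was about equally abundant in both pools, at 2940 FPKM in the JAK2 V617F library and 2891 FPKM in the control library (ratio 1.02). This was 0.666% of the FPKM of protein-coding genes in the JAK2 V617F library and 0.613% in the control library. The 6 highest members made up 81.7% of the JAK2 V617F sum and 79.3% of the control sum. Beneath this near-equal total the classes differed. Primary granule transcripts summed to 1483 FPKM in the JAK2 V617F library and 1169 FPKM in the control library. Secondary granule transcripts summed to 424 FPKM in the JAK2 V617F library and 844 FPKM in the control library. The ratio of secondary to primary sums was 0.286 in the JAK2 V617F library and 0.722 in the control library, a quantity that multiplying a library by a factor does not change. These sums lean on the highest gene of each class. In the secondary class this was Ngp (182 FPKM in the JAK2 V617F library and 450 FPKM in the control library). In the primary class it was Mpo (663 FPKM in the JAK2 V617F library and 577 FPKM in the control library).

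**Figure D2:**
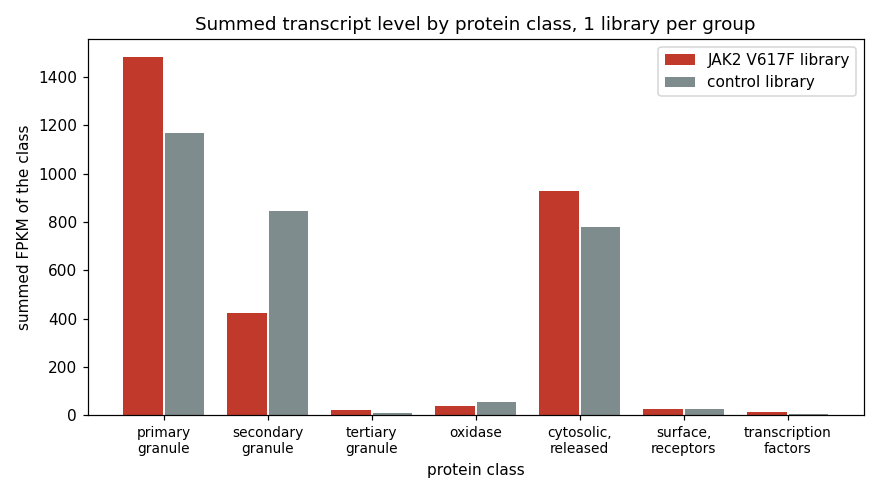
Summed FPKM (vertical axis) of each protein class in the JAK2 V617F library (red) and the control library (grey), 1 library per group and no error bars. The primary class is at 1483 and 1169 FPKM and the secondary class at 424 and 844 FPKM in the JAK2 V617F and control libraries.

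For each gene, the log2 ratio of JAK2 V617F to control was taken after adding 1 FPKM to both, which understates the change of low genes, and a difference of at least 2-fold on that scale was counted. Of the 32 members, 5 (15.6%) lay 2-fold or more above the control library, where 9.99% of 12499 protein-coding rows and 13.7% of all 15425 rows were. A further 4 (12.5%) lay 2-fold or more below it, where 8.71% of protein-coding rows and 11.3% of all rows were. The shares of members in both directions were thus close to those of all rows and above those of protein-coding rows. With a filter at 5 FPKM, 14.8% of members were higher and 14.8% lower, against 9.28% and 9.96% of all rows. After rescaling to the same FPKM sum, 15.6% of members were higher and 9.38% lower, against 16% and 9.1% of all rows. With 5 FPKM added in place of 1 the shares lay farther apart (12.5% of members higher and 12.5% lower, against 3.95% and 4.1% of all rows). These differences in share were not tested. The median log2 ratio of the members was -0.10 against -0.04 for protein-coding rows and -0.03 for all rows. The higher members were Cebpe, Mmp8, Padi4, Retnlg and Pglyrp1, and the lower ones Chi3l3, Ltf, Ngp and Camp. Cebpe and Padi4 reached 1 FPKM in the JAK2 V617F library only, so passing the filter already meant a difference. The other 30 reached it in both. Camp was the called member nearest to the 2-fold line (-1.13) and Serpinb1a the nearest within it (-0.97).

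**Figure D3:**
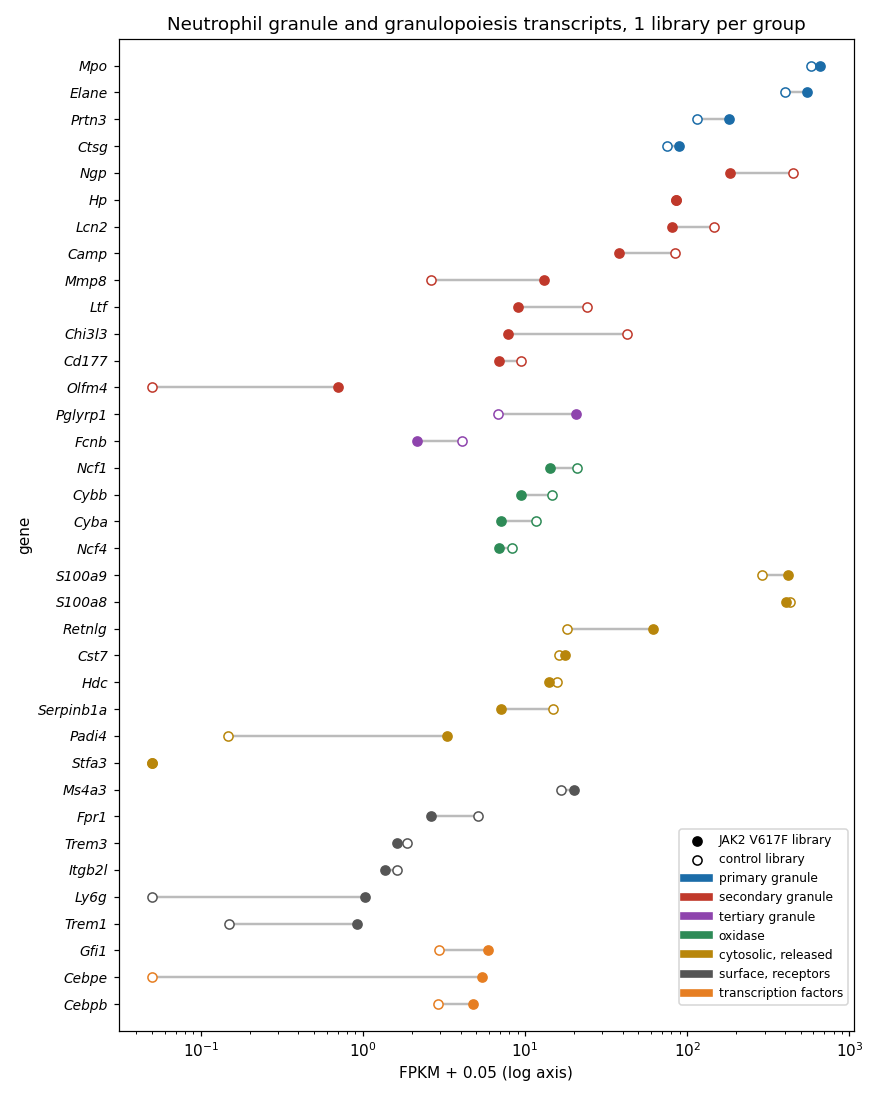
Level of the 36 members with a row (horizontal axis, FPKM + 0.05, log scale) in the JAK2 V617F library (filled) and the control library (open), coloured by protein class and ordered within class by the JAK2 V617F level. Primary granule genes have filled points to the right of open ones, while most secondary granule genes and all oxidase genes have them to the left; points at the left edge are listed at 0.

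Primary granule transcripts were the most abundant class and all 4 were slightly higher in the JAK2 V617F library, with none past 2-fold. Mpo, which encodes the hypochlorous acid-forming enzyme myeloperoxidase, was at 663 FPKM in the JAK2 V617F library and 577 FPKM in the control library (log2 ratio 0.20). It ranked 146th and 183rd of all rows in the JAK2 V617F and control libraries. Elane, neutrophil elastase, was at 549 FPKM in the JAK2 V617F library and 402 FPKM in the control library (0.45). Its neighbour Prtn3, proteinase 3, was at 182 FPKM in the JAK2 V617F library and 115 FPKM in the control library (0.66). The Prtn3 locus in the table (chr10:79851381-79883174, GRCm38) also spans Ptbp1 and Plppr3, and ends 3.14 kb before that of Elane. Ctsg, cathepsin G, was at 89.5 FPKM in the JAK2 V617F library and 74.5 FPKM in the control library (0.26). The class median was 0.35, and all 4 ratios stayed above 1 under each of 3 rescalings of the libraries.

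Secondary granule and secreted transcripts mostly went the other way. Of 8 measured, 4 passed 2-fold downwards, 1 passed it upwards and 3 were within it, with a median log2 ratio of -0.99. Over all rows, 11.3% were lower by that much and 13.7% higher. Ngp, neutrophilic granule protein, a cathelicidin relative, was at 182 FPKM in the JAK2 V617F library and 450 FPKM in the control library (-1.30). With about 1190 and 2507 estimated fragments in the JAK2 V617F and control libraries, its plain ratio was 0.406, with an exact 95% counting interval of 0.378 to 0.435. Ltf, lactoferrin, the iron-binding marker of these granules, was at 9.01 FPKM in the JAK2 V617F library and 24.1 FPKM in the control library (-1.33). Camp, the mouse cathelicidin antimicrobial peptide gene, was at 37.8 FPKM in the JAK2 V617F library and 84.2 FPKM in the control library (-1.13). Its call was lost when both libraries were rescaled to the same FPKM sum. Chi3l3 (Chil3, the chitinase-like protein Ym1) had the largest decrease in the set, at 7.84 FPKM in the JAK2 V617F library and 42.4 FPKM in the control library (-2.30). Its close paralogue Chi3l4 was listed at 0 in both libraries, and how shared reads were assigned is not given in the sources used here. Ngp, Ltf and Camp thus lay between -1.33 and -1.13, and Chi3l3 farther down.

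The remaining secondary genes ranged more widely. Lcn2, the siderophore-binding protein lipocalin 2, was at 81.0 FPKM in the JAK2 V617F library and 147 FPKM in the control library (-0.85). Hp, haptoglobin, which binds free haemoglobin, was at 85.2 FPKM in the JAK2 V617F library and 85.6 FPKM in the control library. Cd177, a glycoprotein of granule and surface membranes, was at 6.90 FPKM in the JAK2 V617F library and 9.34 FPKM in the control library (-0.39). Mmp8, neutrophil collagenase, ran against the class, at 13.1 FPKM in the JAK2 V617F library and 2.59 FPKM in the control library (1.97). About 182 and 31 estimated fragments in the JAK2 V617F and control libraries gave it a plain ratio of 5.06 (counting interval 3.45 to 7.67). The counting intervals of Mmp8 and Ngp lie on opposite sides of 1. Olfm4, olfactomedin 4, was at 0.654 FPKM in the JAK2 V617F library and listed at 0 in the control library. Ratios below 1 were found for 7 of the 8 measured genes as deposited and for 6 under each of the 3 rescalings, since Hp changed sign.

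The tertiary granule genes were split. Pglyrp1, a peptidoglycan recognition protein placed in the later granules in human neutrophils, was at 20.7 FPKM in the JAK2 V617F library and 6.71 FPKM in the control library (1.49). Fcnb, ficolin B, a lectin of the complement pathway whose human counterpart lies in tertiary granules, was at 2.09 FPKM in the JAK2 V617F library and 4.01 FPKM in the control library (-0.69). Mmp9, the gelatinase that defines these granules but is not in the set, was at 5.36 FPKM in the JAK2 V617F library and 6.22 FPKM in the control library.

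All 4 oxidase subunits were lower in the JAK2 V617F library, with none past 2-fold and a median log2 ratio of -0.56. Cybb, the catalytic membrane subunit gp91phox, was at 9.45 FPKM in the JAK2 V617F library and 14.6 FPKM in the control library (-0.58). Its membrane partner Cyba, p22phox, was at 7.09 FPKM in the JAK2 V617F library and 11.6 FPKM in the control library (-0.64). Ncf1, the cytosolic organiser p47phox, was at 14.2 FPKM in the JAK2 V617F library and 21.0 FPKM in the control library (-0.54). Ncf4, p40phox, was at 6.82 FPKM in the JAK2 V617F library and 8.27 FPKM in the control library (-0.25). The ratios of all 4 stayed below 1 under each of the 3 rescalings. The locus of the Cyba row also spans Gm20388, and that of the Ncf1 row Gtf2ird2.

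**Figure D4:**
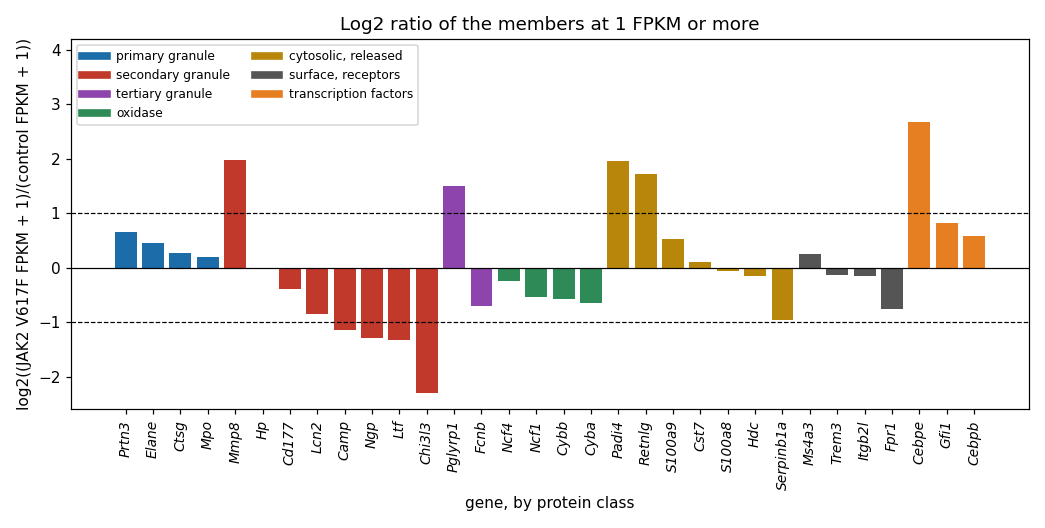
Log2 ratio of JAK2 V617F to control FPKM, 1 FPKM added to both (vertical axis), for the 32 members at 1 FPKM or more, by protein class; dashed lines mark 2-fold. The bars of the 4 primary genes lie above 0 and those of the 4 oxidase genes below, while Mmp8 (1.97) and Chi3l3 (-2.30) of the secondary class lie at opposite ends.

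Among cytosolic and released proteins, the abundant S100 pair stayed within 2-fold. S100a8, a subunit of the calcium-binding protein calprotectin, was at 409 FPKM in the JAK2 V617F library and 428 FPKM in the control library (-0.06, above 0 under the 3 rescalings). Its partner S100a9 was at 416 FPKM in the JAK2 V617F library and 288 FPKM in the control library (0.53). The ratio of S100a8 to S100a9 was 0.983 in the JAK2 V617F library and 1.48 in the control library. Retnlg, a resistin-like protein of mature neutrophils, was higher, at 61.6 FPKM in the JAK2 V617F library and 18.02 FPKM in the control library (1.72). About 164 and 41 estimated fragments in the JAK2 V617F and control libraries gave a plain ratio of 3.42 (counting interval 2.41 to 4.94). Padi4, the histone-citrullinating enzyme of extracellular traps, was at 3.26 FPKM in the JAK2 V617F library and 0.0972 FPKM in the control library (1.96). If all came from its longest coding transcript of 2316 nt, these values correspond to about 43 fragments and 1 fragment in the JAK2 V617F and control libraries. On that assumption the plain ratio of 33.6 has a counting interval of 5.71 to 1357.

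Of the other members of this class, Serpinb1a, Cst7 and Hdc were within 2-fold. Serpinb1a, an inhibitor of elastase and cathepsin G, was at 7.07 FPKM in the JAK2 V617F library and 14.8 FPKM in the control library (-0.97). Cst7, the cysteine protease inhibitor cystatin F, was at 17.6 FPKM in the JAK2 V617F library and 16.2 FPKM in the control library, a plain ratio of 1.08 (counting interval 0.783 to 1.503). Hdc, histidine decarboxylase, was at 14.0 FPKM in the JAK2 V617F library and 15.6 FPKM in the control library (-0.14). Stfa3, a stefin protease inhibitor, was listed at 0 in both libraries. Its paralogues Stfa1 and Stfa2 were also listed at 0 in both, and Stfa2l1 was at 2.92 FPKM in the JAK2 V617F library and 1.35 FPKM in the control library.

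Surface proteins and receptors were low apart from Ms4a3. This tetraspan protein of granulocyte-monocyte progenitors was at 20.0 FPKM in the JAK2 V617F library and 16.6 FPKM in the control library (0.26), close to the steps of the primary granule genes. Fpr1, the receptor for bacterial formyl peptides, was at 2.60 FPKM in the JAK2 V617F library and 5.08 FPKM in the control library (-0.76). With about 19 and 31 estimated fragments in the JAK2 V617F and control libraries, its plain ratio was 0.511 (counting interval 0.273 to 0.933). The row shared by Fpr2 and Fpr3 was at 0.213 FPKM in the JAK2 V617F library and 1.16 FPKM in the control library. Trem3, an activating receptor of myeloid cells, was at 1.56 FPKM in the JAK2 V617F library and 1.81 FPKM in the control library, about 8 fragments in each, which leaves a counting interval of 0.282 to 2.64 for the ratio. Itgb2l, an integrin beta chain, was at 1.32 FPKM in the JAK2 V617F library and 1.57 FPKM in the control library, in a locus that also spans Igsf5 and Pcp4. Ly6g, the surface antigen that defines mature mouse neutrophils, was at 0.974 FPKM in the JAK2 V617F library and listed at 0 in the control library. Trem1 was at 0.871 FPKM in the JAK2 V617F library and 0.0985 FPKM in the control library.

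The 3 transcription factor genes of the set with a row of their own had ratios above 1, and Cebpe alone passed 2-fold. Cebpa, the C/EBP of early granulocyte commitment, is not in the set and had the other sign, at 2.80 FPKM in the JAK2 V617F library and 4.61 FPKM in the control library (-0.56). Cebpd, another C/EBP gene outside the set, had the same sign as Cebpe. It was at 18.5 FPKM in the JAK2 V617F library and 6.86 FPKM in the control library (1.31). Cebpe, C/EBP epsilon, was at 5.35 FPKM in the JAK2 V617F library and listed at 0 in the control library. Its JAK2 V617F value corresponds to about 36 fragments. A count of 0 in the control library allows up to 3 fragments, or 0.529 FPKM on this transcript, and the exact 95% lower counting limit of the ratio was 7.92. Of the 8 measured secondary granule genes, Mmp8 alone had the same sign as Cebpe and the other 7 the opposite one, with Hp nearly equal in both libraries. Gfi1, a repressor needed for neutrophil differentiation, was at 5.89 FPKM in the JAK2 V617F library and 2.88 FPKM in the control library (0.83, past 2-fold with 0.1 FPKM added in place of 1). Cebpb, the C/EBP of emergency granulopoiesis, was at 4.73 FPKM in the JAK2 V617F library and 2.84 FPKM in the control library (0.58), in a locus that also spans Ube2v1 and Tmem189. Sfpi1, the row of the list gene Spi1, was at 25.2 FPKM in the JAK2 V617F library and 13.5 FPKM in the control library (0.85).

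Granulocyte genes outside the set were also mixed. Of 39 listed, 31 reached 1 FPKM, with a median log2 ratio of 0.21. Of the 31, 8 passed 2-fold upwards, 3 downwards and 20 stayed within it. Over all rows, 13.7% were higher by that much and 11.3% lower. Among the genes past 2-fold, Gm5483 and Clec4d reached 1 FPKM in the JAK2 V617F library only. Lrg1 reached it in the control library only. For these genes, passing the filter already meant a difference. The largest differences were in Lrg1 (0.999 FPKM in the JAK2 V617F library and 11.8 FPKM in the control library), Alox5, the leukotriene-forming 5-lipoxygenase (9.85 and 1.80 FPKM in the JAK2 V617F and control libraries), Nkg7, a protein of cytotoxic and myeloid granules (76.6 FPKM in the JAK2 V617F library and 27.3 FPKM in the control library) and Gm5483 (3.58 FPKM in the JAK2 V617F library and 0.688 FPKM in the control library).

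Markers of other blood cells also differed between the libraries, in both directions. All 10 pan-leukocyte genes were measured. In 9 of them the level was higher in the JAK2 V617F library, and their sum was 729 FPKM there and 556 FPKM in the control library, with a median log2 ratio of 0.55. Of 12 measured monocyte and macrophage genes, 5 passed 2-fold upwards and 0 downwards, where 13.7% and 11.3% of all rows did. Of the 5, C1qb, Cd14 and C1qc reached 1 FPKM in the JAK2 V617F library only, so passing the filter already meant a difference. The list summed to 134.7 FPKM in the JAK2 V617F library and 108.7 FPKM in the control library. In the eosinophil, basophil and mast cell list, 4 of 8 passed 2-fold upwards and 2 downwards. Of these, Prss34 and Ear2 reached 1 FPKM in the JAK2 V617F library only. The 2 lower genes, Prg2 and Prg3, reached it in the control library only. For all of these, passing the filter already meant a difference. Prg2, eosinophil major basic protein, had a listed value of 0 in the JAK2 V617F library and was at 22.2 FPKM in the control library. Cpa3, a mast cell protease, was at 14.2 FPKM in the JAK2 V617F library and 1.12 FPKM in the control library. Erythroid genes summed to 1804 FPKM in the JAK2 V617F library and 3353 FPKM in the control library, and 11 of 12 had ratios below 1. The median log2 ratio of B lineage genes was 0.046, with 4 of 8 on either side of 0 and Vpreb1 alone past 2-fold (3.17 FPKM in the JAK2 V617F library and 7.84 FPKM in the control library). Mesenchymal stromal genes summed to 1033 FPKM in the JAK2 V617F library and 1264 FPKM in the control library, all 11 within 2-fold. The part of these other cell types in the differences between neutrophil genes was not tested.

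**Figure D5:**
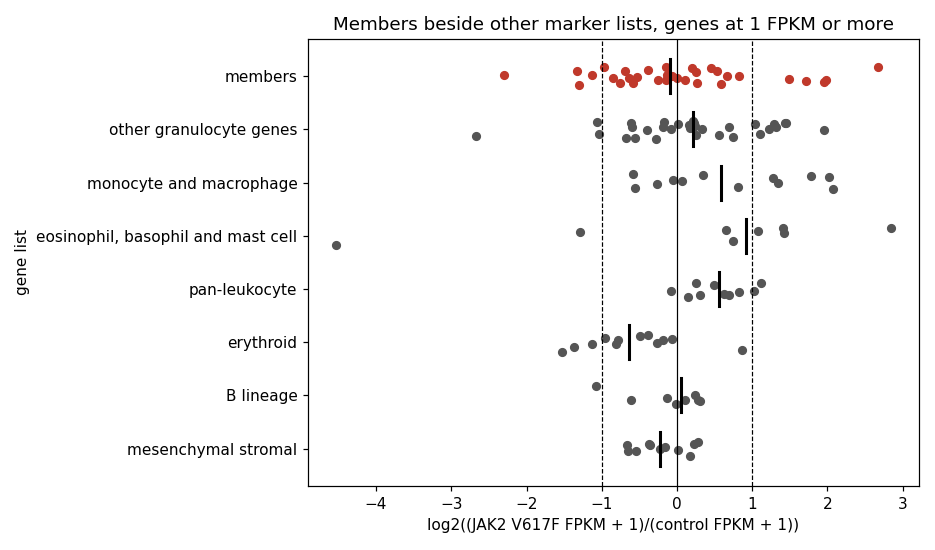
Log2 ratio of JAK2 V617F to control FPKM, 1 FPKM added to both (horizontal axis), for the members (red) and the other marker lists (grey), genes at 1 FPKM or more; each point is a gene, black bars are list medians and dashed lines mark 2-fold. The members centre at -0.10 with points to both sides past 2-fold, pan-leukocyte genes centre at 0.55 and erythroid genes at -0.64.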

How the data were processed

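Total RNA from 2 pools of sorted cells was amplified with the Ovation RNA-Seq System v2 and sequenced on a Genome Analyzer IIx, per the labels' protocols. No molecular identifiers are mentioned, so counting intervals cover counting error only and treat fragments as independent. The submitters' processing notes name Cufflinks, Bowtie2 2.0.6, TopHat2 2.0.7 and cutadapt 1.2.1, with GRCm38 as the build. Not given in the sources used here are the annotation release, the use of strand and any scaling between libraries. The authors deposited 1 FPKM value per gene and library. Of the 35798 rows, 401 name several genes and were left out of the gene lists.

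From these, log2((JAK2 V617F + 1)/(control + 1)) was computed (pandas 2.3.3, Python 3.11.15). Genes below 1 FPKM in both libraries were set aside, and differences of 2-fold or more were counted. Since each group had 1 library and FPKM are no counts, no test was made. The 38 members, their classes and the other lists were chosen with earlier results of these data known. Locus starts count from 0 in the table and from 1 here: 56.1% of starts matched GENCODE vM21 after adding 1, and 1.17% without. For genes with several promoter entries the one listed at the top was used. All members were named, and from each other list at most the 4 genes farthest from a ratio of 1. Mmp9, Cebpa, Cebpd, Clec4d, Prg3 and other genes singled out beside them were chosen after their values were seen. A gene of the other granulocyte list is not reported here.

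Fragments were estimated from 3429 genes of at least 600 nt whose GENCODE vM21 record has 1 transcript and an identical locus. Each FPKM was multiplied by length minus an offset, picked from 0 to 300 nt in steps of 10 as the one with the sharpest steps (160 nt). At 1 kb of effective length, 1 fragment was worth 0.163 FPKM in the JAK2 V617F library and 0.190 in the control library. Of low values, 83.3% and 82.2% in the JAK2 V617F and control libraries lay within 0.2 of a whole number, by a unit fitted to these same genes. Exact (Clopper-Pearson) 95% intervals are given for members with 1 transcript whose ends lie within 30 nt, and for Padi4 on an assumed transcript. For other members the depth is unknown. Alternatives were pseudocounts of 0.1 and 5 FPKM, no filter and a filter at 5 FPKM, 3 rescalings, and thresholds of 1.5-fold and 3-fold. A planned comparison of protein sequences was not run, since no protein table was used here.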

Additional observations from a re-analysis of the deposited data

How the results depend on the processing

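Under the alternatives with a 2-fold threshold, 4 to 6 members were at least 2-fold higher and 3 to 5 lower, against 5 and 4 as reported. At 1.5-fold, 7 were higher (21.9%, against 22.2% of all rows) and 9 lower (28.1% against 21.3%). At 3-fold, 4 were higher (12.5% against 5.89%) and 1, Chi3l3, lower (3.12% against 4.42%). The median log2 ratio of the members, -0.10 as reported, was 0.068 after rescaling to the same FPKM sum and 0.0043 after rescaling to the same upper quartile, while the median of all rows moved by 0.16 and 0.10. No called member changed sign under the 2 other pseudocounts or the 3 rescalings. Camp was within 2-fold after rescaling to the same sum, and Padi4 with a pseudocount of 5 FPKM. Serpinb1a and Gfi1 passed 2-fold with a pseudocount of 0.1 FPKM. Hp and S100a8 changed sign under the 3 rescalings, and Hdc under the same sum. No paired analysis was possible because each group had 1 library, and for the same reason no library could be left out. Few fragments lay behind Fpr1, Trem3, Cebpe and Padi4, which sets the width of their intervals.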

Other observations

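Ltf, Ngp and Camp lie within 1.195 Mb of each other on chromosome 9 (chr9:109847375-111042766, GRCm38), a span examined after their values were seen. Of the 19 other protein-coding genes at 1 FPKM or more with a row inside it, 5 passed 2-fold downwards (Cspg5, Kif9, Myl3, Prss50 and Scap) and 0 passed it upwards, with a median log2 ratio of -0.24. Over all protein-coding rows 8.71% were lower by that much. Mmp8 lies elsewhere on the same chromosome (chr9:7558429-7568486).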
